A study of Mus musculus with 4 samples.

Results

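Closely clustered H3K14ac regions are the entries of an H3K14ac peak list whose summit lay within 5 kb of the summit of another entry of the same list on the same chromosome. They were selected on their measured positions alone, separately in each list: 1222 of 10395 entries in the control list and 2534 of 18438 entries in the Nap1l2 knockdown list, 3756 of 28833 entries in all. Chromatin immunoprecipitation followed by sequencing (ChIP-seq) for histone H3 acetylated at lysine 14 was performed in C3H10T1/2 cells, an established mesenchymal stem cell line from embryos of the C3H mouse strain. The control cells are called WT in the sample titles. The paper names a non-target control for its histone blots and RNA sequencing, and whether the control cells of the ChIP-seq received one is not stated. The knockdown cells received a lentiviral shRNA directed against Nap1l2, a member of the nucleosome assembly protein family. Both groups otherwise share the cell line, the antibody and the culture medium, and each group held 1 ChIP library and 1 input library, so there was no replicate spread to compare with and no test between the groups was possible. By its library number, the control ChIP library belonged to another run of numbers than the remaining 3 libraries, and this difference and the group cannot be told apart.

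Acetylation of lysine residues on the tail of histone H3 neutralises their positive charge and creates docking sites for bromodomain proteins, and in many cell types H3K14ac is found at promoters and enhancers of active genes together with other acetyl marks. Histone acetyltransferases write the mark and deacetylases remove it. Histone chaperones of the NAP1 family bind histones and assist their assembly into nucleosomes. Enhancers of highly expressed cell identity genes often lie close together along the chromosome. Tandem gene families place similar sequences side by side.

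The depth of each library was recovered from the deposited values. A position was covered on average by 2.50 ChIP tags in the control library and by 2.26 in the knockdown library. An entry held a median of 13 and 12 ChIP tags at its summit, with at most 93 and 65 tags in any entry. The genome-wide input background, on the scale of the input library, was 1.51 and 1.27 tags. Of the entries of either list, 0 overlapped another entry of their list.

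Few clustered entries could be set beside sequence, because 9 of them overlapped a RefSeq promoter window that runs from 250 bases before to 50 bases after an annotated start site. In the control list these were 3 of 1222 clustered entries (0.246%, exact 95% interval 0.0507 to 0.716%) against 41 of 9173 other entries (0.447%, 0.321 to 0.606%), and the share over the whole list was 0.423%. In the knockdown list they were 6 of 2534 clustered entries (0.237%, 0.0869 to 0.515%) against 54 of 15904 others (0.34%, 0.255 to 0.443%), with 0.325% over the whole list. Clustered and other entries were thus alike in rarely touching an annotated start, within counting error. The stretches upstream of the start that lay inside a clustered entry are shown for the 3 protein-coding genes that had one and, for its TG runs, for the long noncoding RNA Gm29936. Entries at the long noncoding RNAs Gm24208, Gm52120 and Gm46359 also had such a stretch and are not shown. RefSeq sequence of the build of the lists (GRCm38) was used. Sequences run 5′ to 3′ on the strand of the gene, and capitals mark each CG and each run of at least 4 TG units.

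Mmp20, chr9:7628091-7628230, plus strand: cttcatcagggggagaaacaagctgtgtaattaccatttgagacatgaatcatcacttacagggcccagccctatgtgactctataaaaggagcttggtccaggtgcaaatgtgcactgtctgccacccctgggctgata

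Hdac7, chr15:97814949-97815113, minus strand: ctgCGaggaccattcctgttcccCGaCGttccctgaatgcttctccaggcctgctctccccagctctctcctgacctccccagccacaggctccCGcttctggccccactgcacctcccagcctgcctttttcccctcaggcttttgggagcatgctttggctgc

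Gm1979, chr5:26004771-26004935, minus strand: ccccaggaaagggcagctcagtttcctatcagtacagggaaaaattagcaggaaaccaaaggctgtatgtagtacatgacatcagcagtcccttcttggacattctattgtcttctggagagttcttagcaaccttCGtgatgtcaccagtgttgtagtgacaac

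Gm29936, chr16:8362348-8362590, minus strand: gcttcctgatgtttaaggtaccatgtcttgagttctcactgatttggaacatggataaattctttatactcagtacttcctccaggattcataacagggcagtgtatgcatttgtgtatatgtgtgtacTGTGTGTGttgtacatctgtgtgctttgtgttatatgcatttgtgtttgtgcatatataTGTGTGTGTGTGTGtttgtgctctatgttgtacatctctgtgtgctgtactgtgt

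The control entry at Mmp20, which encodes the enamel protease enamelysin, held 11 tags and its neighbour 1008 bp away held 18. Its 140 upstream bases held 0 CG, whereas 84.7% of all 32851 promoter windows held a CG in the same stretch. The knockdown entry at Hdac7, a class IIa histone deacetylase, held 9 tags and its neighbour 11, and it lay at the most downstream of the 4 annotated starts of the gene. There the 165 bases held 4 CG and a GC content of 63.0%, against a median of 50.9% over all windows in the same stretch. At the predicted gene Gm1979 the knockdown entry held 10 tags and its neighbour 12, with 1 CG in the stretch shown. The knockdown entry at Gm29936 held 20 tags over a local background of 3.0, its neighbour 14, and its longest TG run had 7 units. Of all windows, 3.345% held TGTGTGTG on either strand in the same stretch. A match of letters in such a window is a description of these sequences and nothing more.

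MicroRNA genes lay within the span of 3 clusters. The share of all microRNA genes within clusters was not worked out, so this count only describes where these 3 lie. The hairpin of Mir21a, whose product is an abundant microRNA in many cultured cells, lay at chr11:86584067-86584158 on the minus strand between both entries of a knockdown cluster with 12 and 11 tags, 776 bp from the nearer entry. Its guide strand is shown because it is the best known product among the 3, with the seed (bases 2 to 8) in capitals.

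mmu-miR-21a-5p: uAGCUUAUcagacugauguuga

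Mir7225 on chromosome 3 lay within a knockdown cluster with 17 and 14 tags, and Mir1941 on chromosome 15 within a control cluster with 15 and 14 tags. None of the 3 hairpins was overlapped by an entry, the nearest entry edge being 1238 bp from Mir7225 and 1799 bp from Mir1941.

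Most clusters were pairs. The 1222 clustered control entries formed 563 clusters, chains of summits with gaps of at most 5 kb, of which 482 held 2 entries, 67 held 3 and 14 held 4 or more, up to 5. The 2534 clustered knockdown entries formed 1182 clusters, of which 1040 held 2 entries, 120 held 3 and 22 held 4 or more, up to 6. Pairs made up 85.6% of control clusters and 88.0% of knockdown clusters. From first to last summit a cluster measured a median of 2827 bp in the control and 2642 bp in the knockdown. The longest control cluster measured 11593 bp and the longest knockdown cluster 14038 bp.

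More entries were clustered in both lists than even placement would give. The clustered share was 11.8% of control entries (exact 95% interval 11.1 to 12.4%, counting error only). An even and independent placement of the same number of entries along each chromosome would give, by a closed formula, 606.5 clustered entries (5.83%), so that the observed number was 2.02 times the expected one. In the knockdown list the clustered share was 13.7% (13.2 to 14.2%), against 1532.5 expected entries (8.31%) and a ratio of 1.65. Since the rule chose entries for this very closeness, the ratios describe the lists and are no test. The excess was larger for larger clusters: control clusters of 2 numbered 1.69 times, of 3 5.88 times and of 4 or more 22.6 times the expectation of 284.9, 11.4 and 0.619, while the knockdown ratios were 1.46, 3.46 and 10.9.

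The knockdown list was longer, and longer lists place more summits close together. When the knockdown list was reduced to its 10395 entries with the highest −log10 p, 430 clusters and a clustered share of 8.77% were left, below the control share of 11.8%, although the ratio to even placement rose to 1.89. That setting changed both the length of the knockdown list and the strength of its entries, while the control kept its weak ones. With a −log10 p of at least 4 in both lists, the knockdown share stayed the higher, at 5.87% against 4.55%. The ratio to even placement was the lower in the knockdown under both settings.

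Close neighbours stood on top of a broader unevenness. When the expectation was taken from the density of entries 5 to 500 kb around each entry, instead of from the whole chromosome, it rose to 837.8 clustered control entries and 1871.9 clustered knockdown entries. The observed numbers were 1.46 and 1.35 times as large. With the density out to 100 kb the ratios were 1.31 and 1.27. Pairs of control summits 0.5 to 1 kb apart numbered 96 against 31.6 expected (ratio 3.04), pairs 1 to 2 kb apart 2.25 times, pairs 2 to 3 kb apart 2.42 times, pairs 3 to 4 kb apart 2.39 times, pairs 4 to 5 kb apart 2.29 times and pairs 5 to 10 kb apart 1.82 times the expectation. At 500 to 1000 kb the control ratio was still 1.28. The knockdown ratios fell from 2.18 at 0.5 to 1 kb through 1.72 at 4 to 5 kb and 1.51 at 5 to 10 kb to 1.17 at 500 to 1000 kb. Below 0.5 kb both lists held fewer pairs than expected, at 0.886 and 0.819 times, and the closest summits of a list were 289 and 286 bp apart. The control ratio was thus nearly level from 1 to 5 kb and lower, but again level, from 5 to 20 kb, where pairs 10 to 20 kb apart numbered 1.85 times the expectation.

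**Figure D1:**
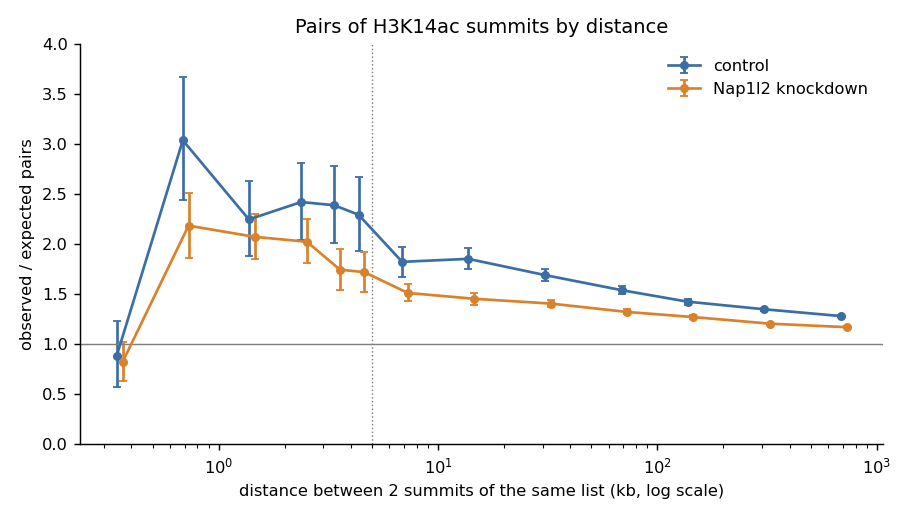
Observed over expected number of pairs of summits of the same list (vertical axis) by their distance in kb (horizontal, log scale) for the control and the Nap1l2 knockdown list. Bars are 95% Poisson intervals of the observed number, the dotted line is 5 kb and the grey line is a ratio of 1. Ratios peak at 0.5 to 1 kb, at 3.04 for control and 2.18 for knockdown pairs, and stay above 1 out to 1000 kb.

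At the limit itself, the widest control pair inside it lay on chromosome 15 with summits 5000 bp apart and 9 and 15 tags, and the nearest outside it lay on chromosome 12 with 5020 bp and 12 and 13 tags. In the knockdown the corresponding pairs lay on chromosome 8 with 4999 bp and 11 and 10 tags, and on chromosome 10 with 5004 bp and 14 and 9 tags. Neighbouring summits 4.5 to 5 kb apart numbered 63 in the control and those 5 to 5.5 kb apart 54, against 116 and 100 in the knockdown.

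Chromosome 15 carried the most clustered entries in both lists. In the control it held 333 of them (27.3% of all clustered entries), a clustered share of 22.7% of its 1468 entries, and in the knockdown 391 (15.4%), a share of 23.0% of its 1702 entries. Its entries were also the densest, at 14.55 per Mb in the control and 16.9 per Mb in the knockdown. Given that density, even placement would cluster 13.5% and 15.5% of its entries, and the ratios of 1.68 and 1.48 on chromosome 15 were below those of the whole lists. Across the other chromosomes the control share ran from 2.21% on chromosome 5 to 13.6% on chromosome 10, and the knockdown share from 6.49% on chromosome 3 to 18.9% on chromosome 16. The observed number exceeded even placement on all 20 chromosomes in both lists, by 1.23 (chromosome 5) to 4.52 times (chromosome 1) in the control and by 1.23 (chromosome 10) to 2.55 times (chromosome X) in the knockdown.

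**Figure D2:**
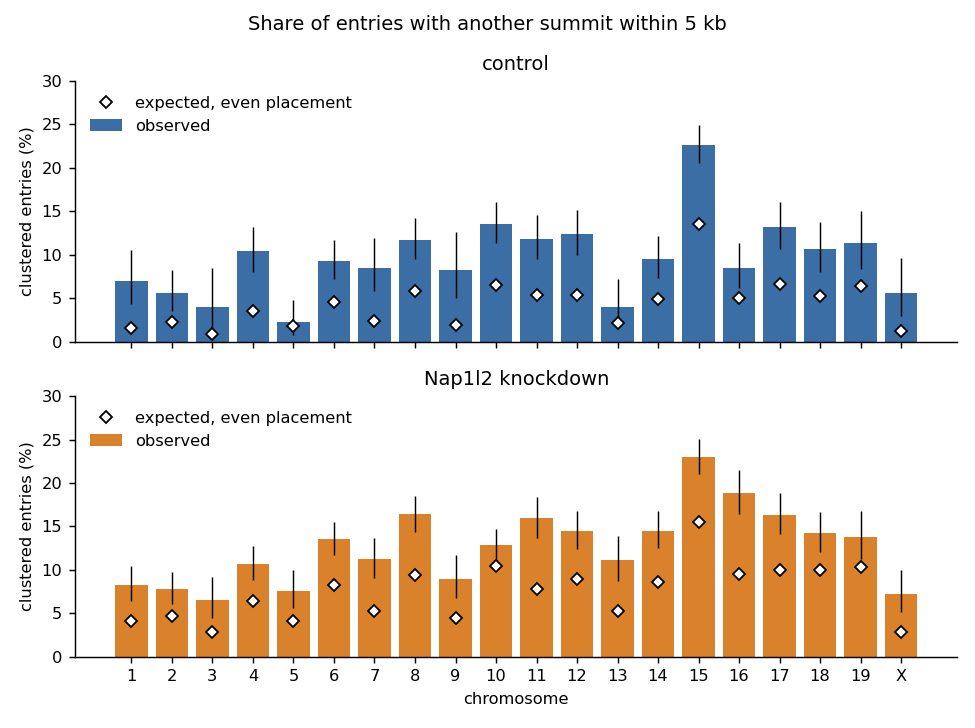
Percent of the entries of each chromosome with another summit within 5 kb (bars, with exact 95% binomial intervals) and the percent given by even placement of the same number of entries on that chromosome (diamonds), for the control (upper) and the Nap1l2 knockdown list (lower). Chromosome 15 stands highest at 22.7% and 23.0%, and its diamonds are also the highest at 13.5% and 15.5%.

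Clustered entries more often lay over a raised input background. The peak caller compared each summit with the larger of the genome-wide input background and the input level around the summit, and an entry was counted as raised where the local level was the larger. In the control 61.1% of clustered entries (58.3 to 63.9%) had a raised background against 48.8% of the others (47.7 to 49.8%), with 50.2% over the whole list. In the knockdown the shares were 40.1% (38.2 to 42.1%) and 31.8% (31.1 to 32.5%), with 32.9% over the whole list. Entries of larger clusters had it most often: 58.9% in control clusters of 2 and 69.4% in those of 3 or more, against 38.0% and 50% in the knockdown. Outside chromosome 15 the control shares were 55.1% and 44.7%, and the knockdown shares 36.9% and 29.0%. On chromosome 15 clustered entries did not have it more often than others, at 77.2% and 77.8% in the control and 58.1% and 63.2% in the knockdown. Its part in the closeness of summits was not tested. Among entries at the genome-wide background alone, 144 control and 553 knockdown clusters were left, at 2.42 and 1.78 times even placement.

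Both states occurred within clusters. All entries were raised in 42.8% of control clusters, none in 22.6%, and the remaining 34.6% were mixed. In the knockdown these shares were 22.0%, 43.0% and 35.0%. The entries of a cluster were otherwise of similar height, the highest over the lowest number of tags being a median of 1.20 in the control and 1.22 in the knockdown, with extremes of 7.9 and 3.5.

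The height of the signal differed little between clustered and other entries. Both kinds had a median of 13 tags, a fold enrichment of 3.28 and a −log10 p of 3.74 in the control, and a median of 12 tags, 3.17 and 3.44 in the knockdown. Differences lay in the upper tail: at least 16 tags were reached by 20.4% of clustered control entries (18.2 to 22.7%) against 14.4% of the others (13.7 to 15.2%), with 15.1% over the list. In the knockdown the shares were 16.6% (15.2 to 18.1%) and 11.9% (11.4 to 12.4%), with 12.5% over the list. At least 20 tags were reached by 4.66% and 1.74% in the control (2.09% over the list) and by 4.38% and 2.60% in the knockdown (2.85% over the list). With the comparison restricted to entries at the genome-wide background, 16 tags were reached by 11.2% (8.47 to 14.3%) of clustered and 9.93% (9.09 to 10.8%) of other control entries, and by 6.66% (5.46 to 8.03%) and 5.51% (5.09 to 5.96%) in the knockdown, and the intervals overlapped in both lists. In the same control entries 20 tags were reached by 0.421% of clustered entries (2 of 475) and 0.532% of others, the other way round. In the knockdown these shares were 0.791% and 0.424%. On chromosome 15 clustered knockdown entries also reached 16 tags less often than the others, at 17.9% and 20.1%, and 20 tags at 4.09% and 4.73%. Clustered control entries there reached 16 tags more often, at 22.2% and 20.2%, and 20 tags at 5.41% and 2.38%. A −log10 q of at least 1.3, which is a q-value of 0.05, was reached by 1.88% of clustered and 0.97% of other control entries (1.08% over the list), and by 2.72% and 1.89% in the knockdown (2.01% over the list). Among control entries at the genome-wide background it was reached by 0.421% of clustered entries (2 of 475) and 1.0% of others. In the knockdown these shares were 1.98% and 1.35%. At least 1 such entry was held by 22 of 563 control clusters and 67 of 1182 knockdown clusters. Median widths were 206 and 199 bp in the control and 212 and 205 bp in the knockdown.

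**Figure D3:**
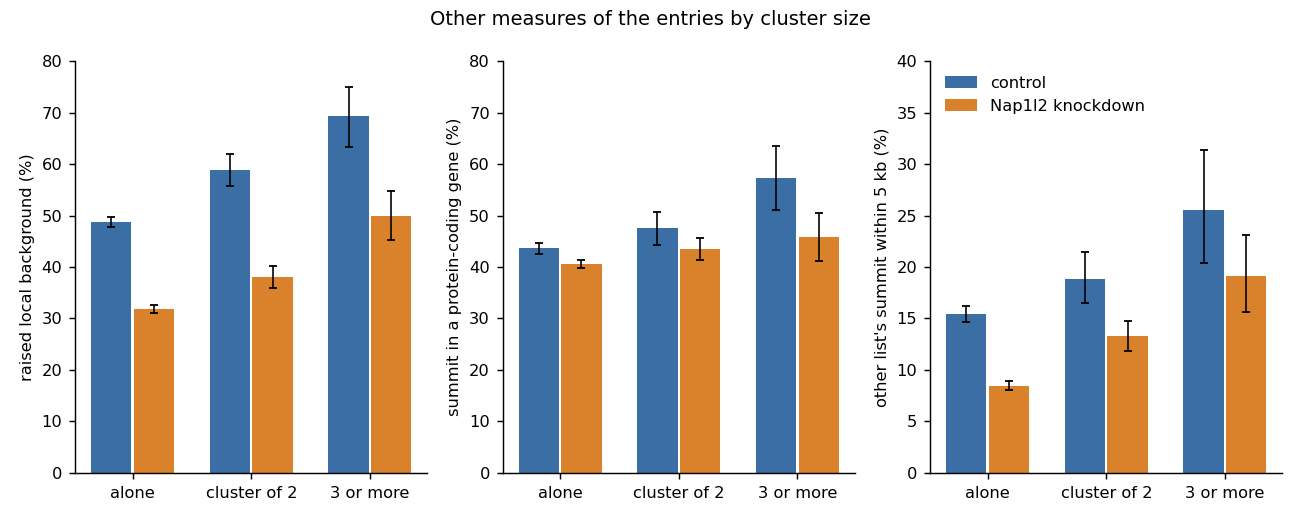
Percent of entries with a raised local input background (left), with a summit in a protein-coding gene (middle) and with a summit of the other list within 5 kb (right), for entries alone, in clusters of 2 and in clusters of 3 or more, in the control and the Nap1l2 knockdown list. Bars carry exact 95% binomial intervals, and the left panel rises from 48.8% to 69.4% in the control and from 31.8% to 50% in the knockdown.

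Of the 14 control clusters with at least 4 entries, 6 lay on chromosome 15, 8 overlapped a protein-coding gene and 6 had no knockdown summit within 5 kb. Since 13 of them tied at 4 entries, the 10 described here are the largest and, of those with 4, the 9 that span the least. The largest, at chr15:82436110-82446282, held 5 entries with 16, 14, 14, 17 and 13 tags over 9.39 kb between summits. It overlapped a pseudogene (Gm46501) and no protein-coding gene, and the nearest such gene, Cyp2d9 of the cytochrome P450 family of drug and steroid hydroxylases, lay 6.095 kb away. All 5 entries were of similar height, and the nearest knockdown summit was 39.0 kb away.

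The other 9 described held 4 entries each. Elfn2, a synaptic leucine-rich repeat protein, carried 10, 12, 13 and 14 tags. Krt87, a hair keratin, carried 18, 14, 13 and 16 tags at chr15:101432402-101437766. Glp1r, the receptor for glucagon-like peptide 1, carried 13, 15, 20 and 18 tags at chr17:30898392-30904100, with 3 of the 4 summits in the gene body. Prkce, which encodes protein kinase C epsilon, carried 11, 13, 13 and 13 tags. Syt7, a calcium sensor of vesicle exocytosis, carried 13, 12, 14 and 11 tags, and Dennd3, a guanine nucleotide exchange factor for Rab proteins, 14, 11, 14 and 12. The remaining 3 lay outside protein-coding genes, 20.4 kb from Slc25a17, a peroxisomal carrier, 25.6 kb from Blk, a kinase of B cells, and in the immunoglobulin heavy chain locus on chromosome 12, where 11, 19, 15 and 13 tags were spread over its D segments at chr12:113466624-113472900. In 5 of these 10 no knockdown summit lay within 5 kb.

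Of the 22 knockdown clusters with at least 4 entries, 7 lay on chromosome 15, 11 overlapped a protein-coding gene and 12 (54.5%) had no control summit within 5 kb. The 10 described are the 5 with more than 4 entries and, of the 17 that tied at 4, the 5 that span the least. The largest held 6 entries in Scube1, a secreted and membrane-bound EGF-like protein, with 16, 18, 11, 18, 15 and 14 tags at chr15:83684333-83693195. In the control list Scube1 held a separate cluster of 2 entries with 12 and 19 tags, and 1 control summit lay within 5 kb of the knockdown cluster. At the start of chromosome 16 a cluster of 5 entries with 17, 30, 20, 16 and 24 tags filled 2.78 kb, 357.8 kb from the nearest protein-coding gene, the olfactory receptor Olfr161. The highest counts were at chrX:31138242-31146876, where 5 entries held 32, 32, 46, 34 and 33 tags, 18.8 kb from Btbd35f29, a member of a multicopy family. Local backgrounds there reached 7.0 against 1.27 genome-wide, and the fold enrichments ran from 2.45 to 4.3 beside the list's median of 3.17. Reads of near-identical copies can be shared between them, and how such reads were placed is not stated for these lists, so the position of this cluster is uncertain. Whether the clusters at the start of chromosome 16 and in the immunoglobulin heavy chain locus also depend on the placing of such reads was not tested.

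**Figure D4:**
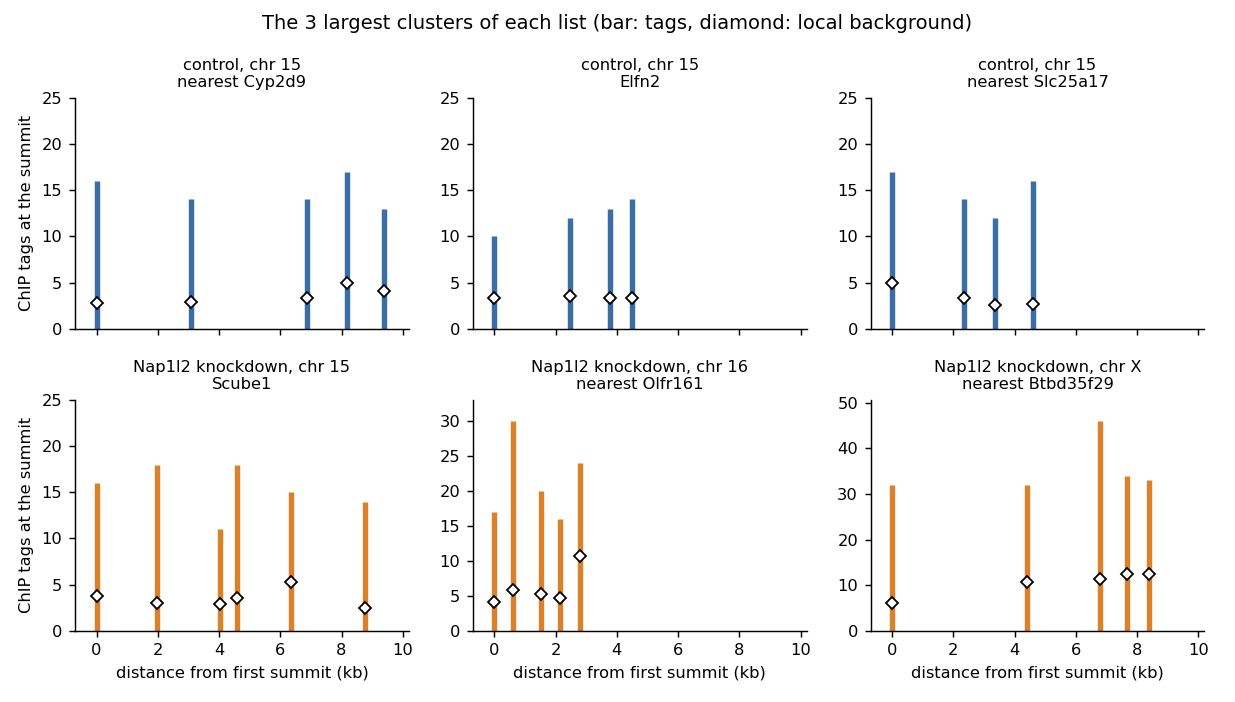
ChIP tags at each summit (bars, vertical axis) by distance from the first summit in kb (horizontal) in the 3 largest clusters of the control (upper row) and of the Nap1l2 knockdown list (lower row). Diamonds are the local input background scaled to the ChIP library. Entries hold 10 to 17 tags in the control panels, 11 to 18 at Scube1 and 32 to 46 on chromosome X, where the diamonds are also higher.

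Another 2 knockdown clusters held 5 entries. In Trappc9, a subunit of a vesicle tethering complex, they carried 11, 16, 15, 12 and 13 tags, and 122.3 kb from Asap1, a GTPase-activating protein, 10, 14, 14, 13 and 12 tags. The other 5 held 4 entries each and lay in Clec4b1, a C-type lectin receptor, Ank1, the ankyrin of the red cell membrane skeleton, Otop2, a proton channel, Ctnnd2, which encodes delta-catenin, and Sdk2, a synaptic adhesion protein. Ank1 carried 11, 13, 12 and 18 tags, and Otop2 carried 15, 25, 14 and 12, the 25 tags lying over a background of 1.42.

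Ranked by summed −log10 p, a few clusters were led by single tall entries. The control cluster with the highest sum, 20.7, held 51 and 32 tags over backgrounds of 7.0 and 3.0 at the predicted gene 4930467E23Rik on chromosome 8, and it was the only control cluster in which all entries passed the q-value of 0.05. A control cluster 2.79 kb from Gm4981 on chromosome 10 paired 79 tags with 10 tags and summed to 19.4. In the knockdown the chromosome X cluster had the highest sum, 29.6, and a pair with 61 and 22 tags 23.5 kb from Apba2 on chromosome 7 summed to 22.0 and was the only knockdown cluster in which all entries passed that q-value. The fifth place of the knockdown, with a sum of 21.0, was again in the immunoglobulin heavy chain locus, at chr12:113355951-113363899 over the constant region Ighg3. Immunoglobulin genes are rearranged and expressed in B cells.

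Few genes carried clustered entries, and these genes were long. Of 21631 protein-coding genes, 315 (1.46%) had a clustered control entry in their body or within 5 kb and 550 (2.54%) a clustered knockdown entry. Their median lengths were 81.2 and 95.1 kb, against 17.3 kb over all genes and 64.3 and 58.3 kb over genes with any entry of the list. Summits lay in a protein-coding gene body for 49.6% of clustered control entries (46.8 to 52.4%) and 43.6% of the others (42.6 to 44.7%), with 44.3% over the list, and for 44.0% (42.0 to 45.9%) and 40.6% (39.9 to 41.4%) in the knockdown, with 41.1% over the list. In the control this share was 57.4% in clusters of 3 or more. Chromosome 15 held 75 of the 315 genes (23.8%) and 79 of the 550 (14.4%), but 3.59% of all genes.

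The genes named in this paragraph were chosen after their values were seen, from among those with the most clustered entries, some of them for their contrast between the lists. In the control list Dnah8, a heavy chain of axonemal dynein, had 9 clustered entries in 3 clusters and Trappc9 had 7 in 3 clusters. In the knockdown list Trappc9 had 11 in 4 clusters, Asic2, an acid-sensing ion channel, had 10 in 5, and Cdh23, a cadherin of hair cell tip links, had 8 in 4. Cdh23 also had 6 in 3 control clusters. Glp1r, Dennd3 and Tafa5 each had 6 clustered control entries and 0 clustered knockdown entries, whereas the receptor tyrosine kinase Alk had 0 and 8. Alk held 11 entries of the control list and 16 of the knockdown list in all, so that this contrast is in their spacing. Glp1r, Dennd3 and Tafa5 held only 0, 1 and 3 knockdown entries of any kind, beside 6, 7 and 12 control entries. Pcdh15, Ctnnd2 and Shisal1 also had 8 clustered knockdown entries each, beside 2, 4 and 2 clustered control entries. All but Glp1r, Dennd3 and Shisal1 of these genes are longer than 200 kb.

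Gene families were set beside the 1.46% and 2.54% of all protein-coding genes that were reached. Over 22 families with 2875 genes in all, 23 genes (0.8%) had a clustered control entry and 34 (1.18%) a clustered knockdown entry. In the control 14 families had 0 such genes and in the knockdown 10, but most of these families are too small to hold more than a few at the share of all genes. Olfactory receptors, the largest of them, had clustered entries at 2 (0.180%) and 7 (0.631%) of 1110 genes, and vomeronasal receptors at 0 and 2 of 355. Defensins, with 71 genes, and major urinary proteins, with 22, had 0 in both lists, numbers at which the share of all genes would give at most a few. Genes with only a predicted gene name, which are no family, were reached at 15 (0.907%) and 25 (1.51%) of 1654. These shares are below those of all genes, but per Mb they held 0.754 and 1.27 clustered entries, above the density over all genes.

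Of these families, keratins had the most genes with clustered control entries. Of 109 keratin and keratin-associated genes, 7 (6.42%) had clustered control entries and 4 (3.67%) clustered knockdown entries, beside 1.46% and 2.54% of all genes. All 7 control genes and 3 of the 4 knockdown genes lay on chromosome 15, in the type II keratin locus. The 7 control genes lay at 6 clusters, since neighbouring genes share a cluster. Krt78 carried 4 clustered control entries, 15 and 16 tags between it and Krt79 and 25 and 26 tags in its body. The latter pair lay over a local background of up to 6.0, with a −log10 p of at most 4.05 and a −log10 q of 0. Krt7, a keratin of simple epithelia, carried 14 and 12 tags and shared the 18 tags of the nearest entry of the Krt87 cluster. In the knockdown Krt81, a hair keratin, had 22, 10 and 15 tags and Krt1, a keratin of the epidermis, had 19, 15 and 14. Krt32, on chromosome 11, had 13 and 12. None of the 7 keratin genes of the control was among the 4 of the knockdown, where 25.1% of all control genes were shared by the lists, and knockdown entries outside clusters lay at Krt80 (2), Krt82 (1) and Krt90 (1) and a control entry outside clusters at Krt71. On chromosome 15 alone, keratin genes with 5 kb either side held 54.5 control entries and 30.5 clustered control entries per Mb, against 16.5 and 4.18 over all protein-coding genes of that chromosome. Knockdown entries stood at 39.3 and clustered ones at 15.3 per Mb, against 17.9 and 4.38. By genes, 7 of the 26 keratin genes of chromosome 15 (26.9%) were reached in the control against 9.665% of all its genes, and 3 (11.5%) in the knockdown against 10.18%, so that the knockdown count was near the share of that chromosome.

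The Ly6 family of small GPI-anchored or secreted proteins had clustered control entries at 5 of 36 genes (13.9%) and clustered knockdown entries at 1 (2.78%), beside 1.46% and 2.54% of all genes. These 5 also lay on chromosome 15, where 5 of 20 Ly6 genes (25%) were reached in the control against 9.665% of all genes of that chromosome, and 1 (5%) in the knockdown against 10.18%. Ly6g, a marker of neutrophils, had 13 and 14 tags and Ly6m had 14 and 16, whereas Ly6e had 14 tags of a cluster that begins outside its window. Slurp2 was at a cluster of both lists, described with the places that cluster in both.

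The other families past the share of all genes (1.46% in the control, 2.54% in the knockdown) with at least 2 genes rested on 2 to 4 genes each. Near that share were cytochrome P450 genes in the control (2.02%). In the knockdown, lectin-like receptors (3.23%) and X-linked and testis multicopy genes (2.97%) were near it too. Cytochrome P450 genes stood at 4.04% in the knockdown, serpins at 4.76% and Hox genes, on 1 cluster, at 7.69%. Families past it on a single gene (Hox and histone genes in the control, Ly6 in the knockdown) are not described further. Cytochrome P450 genes had clustered entries at 2 of 99 in the control, where Cyp4f37 carried 12, 14 and 15 tags and Cyp2d40 15, and at 4 of 99 in the knockdown, where Cyp2d26 carried 15, 17 and 13 tags, Cyp11b2, the aldosterone synthase, 10 and 12, and Cyp2c65 14 and 12. In the knockdown 3 of 63 serpins had clustered entries: Serpina1b with 12 and 13 tags, and Serpina3b and Serpina3c, which share a cluster of 3 entries with 11, 8 and 15 tags. Among killer cell lectin-like receptors and other C-type lectins, counted together, Clec4b1 had 4 entries and Klrg1 had 2 with 10 tags each, 2 of 62 genes. A single knockdown cluster with 11 and 13 tags at chr15:103016689-103017379 accounted for Hoxc4, Hoxc5 and Hoxc6, 3 of 39 Hox genes, which specify position along the body axis. Of 101 X-linked and testis multicopy genes, 3 were reached, Speer4a with 15 and 10 tags, Ssxb1 with 14 and 13 and Magea5 with 20.

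Genes of the study's own subject were almost free of clustered entries. Of 20 osteogenic genes, 16 genes of senescence and inflammation and 14 histone chaperones, 0 had a clustered entry in either list, although 3 and 6 of the osteogenic genes had an entry of the control and the knockdown list. Of 20 enzymes of histone acetylation, 0 had one in the control and 1 in the knockdown, namely Kat6a, a lysine acetyltransferase of the MYST family, with 15 and 13 tags at chr8:22877481-22881501. With 1.46% and 2.54% of all genes reached, lists of this size would hold few such genes in any case. From Runx2, the transcription factor that starts osteoblast differentiation, the nearest clustered summit was 1634.2 kb away in the control list and 302.4 kb away in the knockdown list. For Sp7, which acts after Runx2, the distances were 394.9 and 455.3 kb. For Bglap, which encodes osteocalcin, they were 5244.6 and 1273.5 kb, and for Nap1l2 itself 992.5 and 3266.6 kb. Clusters were on average 2547.6 and 1206.8 kb apart on the chromosome of Runx2 and 681.6 and 579.7 kb apart on that of Sp7. On the chromosome of Bglap this spacing was 52293.1 and 10458.6 kb, and on that of Nap1l2 27905.5 and 10464.6 kb. Each distance was below the mean spacing. Most positions lie nearer than that to a cluster on one side or the other. The comparison therefore cannot show whether these genes lay near to or far from clusters.

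Clustered entries of a list had an entry of the other list nearby more often than other entries had. In the control 248 of 1222 clustered entries (20.3%, 18.1 to 22.7%) had a knockdown summit within 5 kb against 1414 of 9173 others (15.4%, 14.7 to 16.2%), with 16% over the list. In the knockdown 363 of 2534 (14.3%, 12.98 to 15.75%) had a control summit within 5 kb against 1348 of 15904 (8.48%, 8.05 to 8.92%), with 9.28% over the list. Clustered entries also lay where the other list was denser. From the density of the other list 5 to 500 kb around them, 14.5% of clustered and 11.0% of other control entries would have such a neighbour, and the observed shares were 1.4 and 1.41 times that. In the knockdown the ratios were 1.60 for clustered and 1.38 for other entries. Outside chromosome 15 they were 1.58 and 1.46 in the control and 1.61 and 1.44 in the knockdown. In the control the higher share of clustered entries thus went with the density around them, with chromosome 15 included.

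Clusters of the lists coincided at 30 places. A control cluster was taken to have a knockdown cluster at the same place where a summit of each lay within 5 kb of the other. This held for 30 of 563 control clusters (5.33%, 3.62 to 7.52%) and 30 of 1182 knockdown clusters (2.54%, 1.72 to 3.60%), while 130 control clusters (23.1%) and 197 knockdown clusters (16.7%) had any entry of the other list within 5 kb. Even placement of the knockdown clusters on each chromosome would give 7.95 such control clusters, and the density of knockdown clusters up to 500 kb away would give 14.25. On chromosome 15 there were 10 places against 6.38 from that density, and on the other chromosomes 20 against 7.87. Most clusters of either list thus had no counterpart, and those that had were more numerous than the surrounding density gives. Among the 30, the spans overlapped in 20, and an entry of each list overlapped in 11.

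At these places 44 of 65 control entries (67.7%) and 44 of 72 knockdown entries (61.1%) had a raised local background, beside 61.1% and 40.1% of all clustered entries, and at 1 place no entry of either list had it. When entries with a raised background were left out, 1 place was left, but only 144 control and 553 knockdown clusters remained to coincide. The part of the input background in the coincidence was not tested. When the knockdown list was reduced to the length of the control list, 15 places were left, with 430 knockdown clusters. Expected numbers of places were not worked out for these smaller sets, so the drops cannot be set against placement.

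Trappc9 held the place with the most entries, 3 in the control with 18, 16 and 21 tags and 5 in the knockdown with 11, 16, 15, 12 and 13 tags. The groups of summits lay side by side rather than over each other, with 446 bp between the closest. At Gm5622 on chromosome 14, a predicted gene, 20, 19 and 19 control tags faced 24, 16 and 20 knockdown tags, over backgrounds of up to 5.0 and 4.0. At 22.1 kb from Zfp706, a small zinc finger protein, 2 control entries with 14 tags each lay among 4 knockdown entries with 12 to 18 tags. Celf4, an RNA-binding protein of neurons, held 14 and 11 control tags and 12, 13, 16 and 13 knockdown tags, and the closest summits were 1 bp apart. Nfix, a transcription factor of the nuclear factor I family, held 16, 11 and 13 control tags and 17 and 18 knockdown tags over backgrounds of at most 2.0. At Pald1, a phosphatase domain protein, 3 control entries with 14 to 17 tags spanned 2 knockdown entries with 12 and 13.

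The remaining 4 of the 10 places with the most entries held 2 control and 3 knockdown entries each. They were at the lncRNA gene Gm31333 on chromosome 12, with 12 and 16 control tags and up to 25 knockdown tags, at Slurp2, a secreted Ly6 protein, at Mpped1, a metallophosphoesterase domain protein, and 56.3 kb from Tbc1d22a, a Rab GTPase-activating protein. The control cluster at the Slurp2 place held 16 and 15 tags and overlapped no protein-coding gene. Only its entry with 15 tags lay within 5 kb of Slurp2, and the entry with 16 tags lay within 5 kb of Lypd2. The knockdown cluster, which overlapped Slurp2, held 13, 11 and 12 tags. No place held more than 3 entries of both lists. Since the lists were called from single libraries, an entry missing from a list may also have been just under its limit, and the differences between the lists at a place were not tested.

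**Figure D5:**
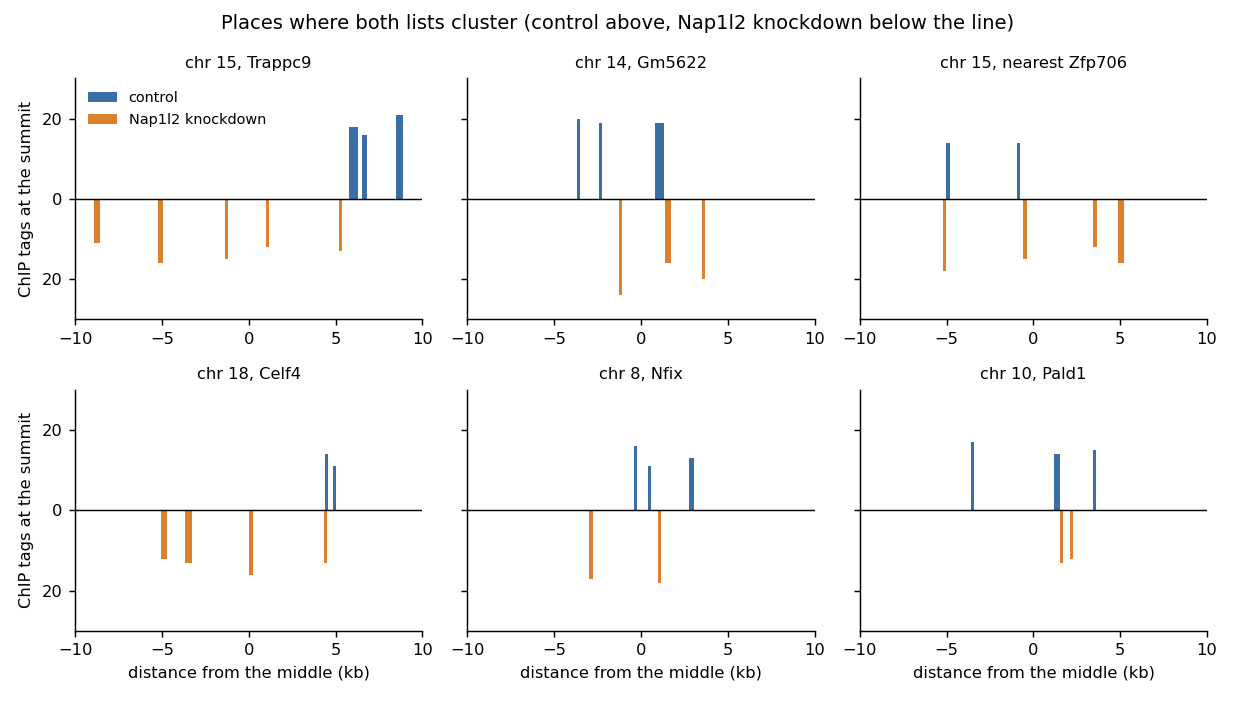
ChIP tags at the entries of the control list (upward) and of the Nap1l2 knockdown list (downward) by distance in kb from the middle of the place, at the 6 places with the most entries of both lists. Bar widths follow the entries. Closest summits of the lists are 446 bp apart at Trappc9 and 1 bp apart at Celf4.

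At the level of genes, 79 had clustered entries of both lists, which is 25.1% of the 315 control genes and 14.4% of the 550 knockdown genes. Their median length was 257.6 kb and 22 of them lay on chromosome 15. Larger clusters more often had the other list nearby: a knockdown entry lay within 5 kb of 104 of 482 control clusters of 2 (21.6%), 18 of 67 of 3 (26.9%) and 8 of 14 of 4 or more (57.1%, 28.9 to 82.3%), and a control entry within 5 kb of 15.6%, 20.8% and 45.5% of knockdown clusters. Longer clusters also cover more ground. Per entry the share was likewise the highest in clusters of 4 or more. It was 40.4% against 17.7% from the surrounding density in the control, and 27.7% against 13.8% in the knockdown. These shares rest on 23 of 57 control entries in 8 clusters and 26 of 94 knockdown entries in 10 clusters. Entries of a cluster can share the same neighbour and are not replicates, so the share per entry does not remove the effect of length. The part of cluster length was not tested. Of the 14 largest control clusters, 0 had a knockdown cluster at the same place, against 3 of the 22 largest knockdown clusters with a control cluster.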

How the data were processed

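The authors deposited 1 peak list for each H3K14ac ChIP library. Their notes name BWA 0.7.13, Picard 1.126, MACS2 2.1.0 and mm10, and the deposited names state that duplicates were removed and that calling used the matching input and a p-value of 0.01, followed by filtering, the nature of which is not given in the sources used here. Among the columns, the deposited fold enrichment is a ratio of ChIP to input pileup, p-values and q-values were deposited as −log10, and the score column equals the deposited −log10 p multiplied by 10 and cut to a whole number. Whole ChIP tags and the local input background were solved from fold and p for 100% of entries of both lists. Exact (Clopper-Pearson) 95% intervals were taken over entries and cover counting error only. Each group had 1 ChIP library, and entries of 1 cluster share their surroundings and are not replicates. The intervals take no account of either limit. Tags carry no molecular identifiers. Expected numbers come from closed formulas for even and independent positions, tested on simulated data. Gene positions and sequences are from RefSeq, GRCm38.p6. Python 3.11.15 was used with numpy 2.4.6, pandas 2.3.3, scipy 1.17.1 and matplotlib 3.10.9.

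The members, gene lists and families were chosen with earlier results of these data known. Named clusters are the 10 with the most entries of each list (ties by shorter span) and of the places in both, and the 5 with the highest summed −log10 p. Named genes are Runx2, Sp7, Bglap and Nap1l2, listed genes with a clustered entry and up to 3 genes of each family with at least 2 genes and a share above that of all genes. The input libraries entered only through the background.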

Additional observations from a re-analysis of the deposited data

How the results depend on the processing

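No paired analysis was possible because there was 1 ChIP library per group, which also means that no library could be left out. Of 66 recomputed values, 18 stayed within 1.5 times of the reported count or within the 95% interval of the reported share or ratio, and 48 moved, and the number of clustered entries stayed above even placement under each setting. Values are given as control and knockdown, and each setting changes the number of entries or the distance by its construction. With a summit distance of 2 kb there were 240 and 529 clusters, shares of 4.79% and 5.92%, a knockdown ratio to even placement of 1.73, and 1.25% and 0.567% of clusters at the same place. With 10 kb these were 907 and 1946 clusters, 19.6% and 23.4%, ratios of 1.75 and 1.48, and 9.15% and 4.21%. With a −log10 p of at least 4 there were 70 and 162 clusters, 4.55% and 5.87%, ratios of 2.405 and 2.13, and 1.43% and 0.617%. At a −log10 q of 1.3 or more there was 1 cluster in each list, 1.79% and 0.541% of entries, ratios of 20.3 and 2.56 on 1 cluster each, and 0% at the same place. At the genome-wide background only there were 144 and 553 clusters, 5.74% and 9.24%, ratios of 2.42 and 1.78, and 0.694% and 0.181%. With equal numbers of entries the knockdown had 430 clusters, 8.77% and a ratio of 1.89, and 2.66% of control clusters were at the same place. Without chromosome 15 the shares were 9.96% and 12.8% and the control ratio 2.18. Where cluster spans had to overlap, 3.55% and 1.69% were at the same place. Distances between edges moved none of the 8 results.

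A median of 13 and 12 tags per entry limits what these lists can show. Tags at places without an entry were not analysed here, so an absent entry is not an absent signal.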
